A study of Schizosaccharomyces pombe with 15 samples.

Results

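How fission yeast transcripts changed between 15 and 30 min after exposure to plasma at atmospheric pressure was measured in 6 of the 15 libraries of the series, 3 at 30 min and 3 at 15 min. Of 6998 genes listed, the 5214 that passed a filter on low counts were compared. All libraries came from strain JY450 of Schizosaccharomyces pombe, a wild type, grown in YE, a rich yeast extract medium, and set on a membrane filter on agar before irradiation. Such plasma is a partly ionised gas, and a source of reactive oxygen and nitrogen compounds. The plasma groups were cells 10, 15 and 30 min after irradiation, and a control group was not irradiated, with 3 libraries each that the labels call biological replicates. A further group, 3 libraries of cells treated with H2O2, entered the filter, the scaling and the estimate of the spread between libraries, but no comparison. The labels allow cells in logarithmic or stationary phase, and the phase of each library, the plasma dose and any pairing of cultures are not stated there.

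The change at 15 min against no irradiation is called the first change here, and the change at 30 min against 15 min the second. Levels are CPM, a gene's counts scaled to a fixed total per library, on library sizes scaled with TMM, which lines up the bulk of genes between libraries. Called means an adjusted p under 0.05 in edgeR's quasi-likelihood test, adjusted over all genes tested, and ± after a fold change is a standard error. The 6 library totals ran from 14691752 to 23232575 counts. In bulk RNA, fewer cells of a type and less RNA per cell cannot be told apart. Library a at 15 min stood apart on the second principal component of the log2 levels, at 2.90 against 12.95 and 13.14 for libraries b and c. Ribosomal RNA took 0.180 to 0.877% of counts at 30 min and 0.0388 to 0.267% at 15 min, and the part of this in the results below was not tested.

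Fission yeast answers oxidants through 2 main routes. The stress kinase Sty1 and its factor Atf1 raise a core set of genes under many stresses, and the factor Pap1 enters the nucleus when peroxide oxidises it and raises peroxide-removing enzymes and exporters. Growth genes, above all those that make ribosomes, are turned down in most stresses. Iron uptake genes are held down by the repressor Fep1 when iron is plentiful, and the G1/S complex MBF drives genes of DNA synthesis.

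Upstream sequences of 6 genes described below are given first, because they hold motifs known for these regulators. They are read 5′ to 3′ on the strand of the gene from the RefSeq assembly ASM294v3, upstream of that assembly's annotated gene start. The fip1 window (chrI:4234819-4235018, minus strand) lies between the divergent genes fip1 and fio1, and its capitals mark matches to ATCNGATAA, a Fep1 site, on either strand.
fip1: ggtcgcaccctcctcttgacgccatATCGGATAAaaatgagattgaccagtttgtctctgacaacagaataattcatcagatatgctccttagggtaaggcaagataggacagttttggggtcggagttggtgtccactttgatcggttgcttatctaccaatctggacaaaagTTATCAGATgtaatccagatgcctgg
Capitals in the next 3 mark ACGCGT, the MCB core to which MBF binds, for cdt2 (chrI:2035735-2035844, minus strand), cdc22 (chrI:4226880-4226939, plus strand) and tos4 (chrI:1922433-1922492, plus strand).
cdt2: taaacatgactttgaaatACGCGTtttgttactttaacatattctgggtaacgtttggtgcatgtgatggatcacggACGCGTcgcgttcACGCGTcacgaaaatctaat
cdc22: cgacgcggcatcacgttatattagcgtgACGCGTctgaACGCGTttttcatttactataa
tos4: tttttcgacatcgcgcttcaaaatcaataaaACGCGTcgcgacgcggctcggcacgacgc
Capitals mark TGACGT, the core of the site of Atf1, for ctt1 (chrIII:58864-58923, minus strand), and GAANNTTC, a heat shock element, for ssa1 (chrI:2297995-2298054, minus strand).
ctt1: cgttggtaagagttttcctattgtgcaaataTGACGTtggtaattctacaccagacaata
ssa1: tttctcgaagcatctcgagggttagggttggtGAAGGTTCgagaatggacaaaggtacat

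Between 15 and 30 min, 785 genes rose (15.1% of those tested) and 713 fell (13.7%). Most of these changes were small, with a median size of 0.32 on the log2 scale. At least 2-fold changes were called for 49 genes upwards (0.94%) and 55 downwards (1.05%). The 3 libraries at 30 min and the 3 at 15 min did not overlap for 2570 genes (49.3%), so that a gap between the groups is common here. Of the 49, 28 code for proteins, 5 are ribosomal RNAs and 5 lie on the mitochondrial genome. Of the 55, 20 code for proteins and 33 are non-coding RNAs. Scaled by total counts alone, 378 genes rose and 906 fell, with a median log2 change over all genes of -0.09 in place of -0.01, so the balance of rises to falls rests on the scaling. Without library a at 15 min, 602 genes rose and 513 fell, and without library b at 30 min 574 rose and 471 fell.

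Crossing the first change with the second gave 6 classes. Of the 1412 genes (27.1%) called higher at 15 min, 302 rose again and 201 came back down, while for 909 the second change was not called. Of the 1295 genes (24.8%) called lower at 15 min, 231 fell again and 224 came back up, and for 840 the second change was not called. A further 259 genes rose and 281 fell with no first change called, and these are the new rises and new falls. New refers to the call at 15 min alone. ssa1, a new rise, had been called higher at 10 min than without irradiation (log2 1.65, adjusted p = 0.0134). The ammonium transporter gene amt1, another new rise, had been called lower at 10 min (log2 -1.24, adjusted p = 8.16e-07). Of the 1749 genes called at 15 min alone, 1530 had a second change whose 95% interval lay within 1.5-fold either way. Both changes use the 15 min libraries, so an error in their mean moves the 2 changes in opposite directions. The first change was also taken from 10 min against no irradiation, which shares no library with the second. It called 21.9% of genes higher and 17% lower. By it 256 genes rose again, 148 came back down, 171 fell again and 155 came back up. A further 374 rose and 394 fell without a call at 10 min. Leaving out 1 library moved some classes by over 1.5 times: continued falls numbered 152 without library a and 140 without library c at 15 min, recoveries after a fall 149 without library b at 15 min, and new falls 181 without library a at 15 min, 164 without library b and 176 without library c at 30 min. Against no irradiation 31% of genes were higher at 30 min and 29% lower, and 113 of the 201 genes coming down were no longer called in that comparison, 78 were still higher and 10 were lower. Of the 224 genes coming up, 140 were no longer called, 49 were still lower and 35 were higher. The second change differed from the change between 10 and 15 min, upwards for 5.6% of genes and downwards for 5.08%, counts that rest on single libraries (125 upwards and 109 downwards without library a at 15 min) and, upwards, on the scaling (100 with total counts).

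**Figure D1:**
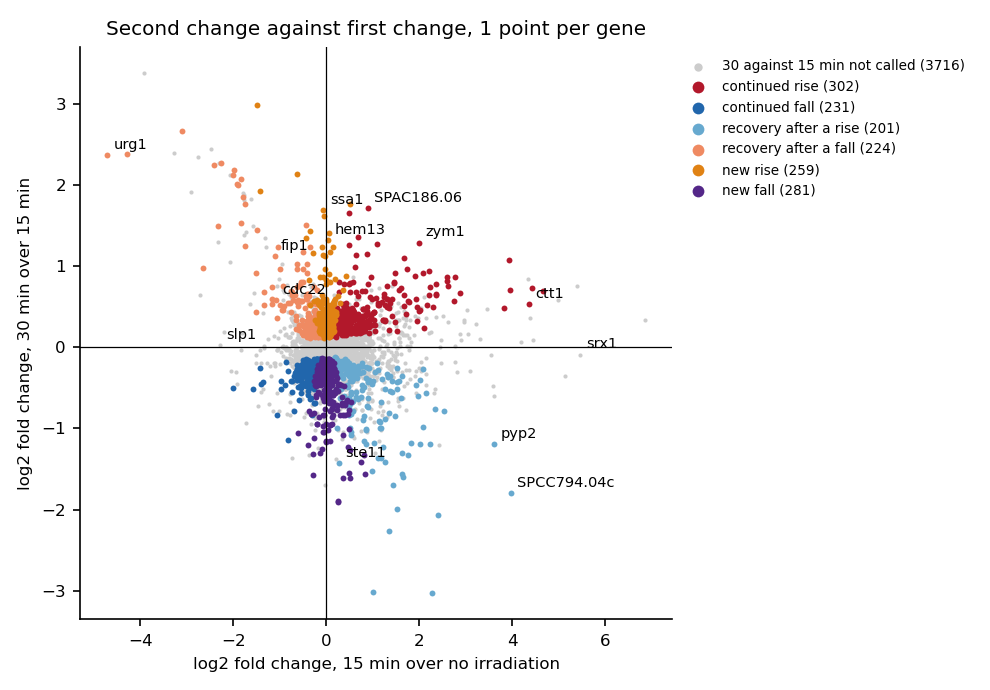
Each point is 1 of 5214 genes, with the log2 fold change of 15 min over no irradiation on the x axis and of 30 min over 15 min on the y axis; colours give the class and the legend its number of genes. The 302 continued rises lie upper right and the 224 recoveries after a fall upper left, while srx1 and slp1 lie far out on the x axis with a second change near 0.

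The genes that came back furthest were urg1 and urg2, neighbouring genes of chromosome I known for their control by uracil (urg1 at 1835270 to 1837060 on the plus strand, urg2 at 1830609 to 1831951 on the minus strand, as the deposited table lists them). urg1 had 122, 119 and 106 CPM at 30 min, against 20.6, 21 and 25.1 CPM at 15 min. All 3 libraries at 30 min stood far above all 3 at 15 min, a 5.18-fold difference (log2 2.37 ± 0.19, adjusted p = 1.03e-06). The return was partial, since urg1 averaged 584 ± 161 CPM without irradiation (SD, n = 3), and at 30 min it was still lower than that by a log2 change of -2.34 (adjusted p = 4.7e-08). urg2 followed with 147, 138 and 122 CPM at 30 min and 23.4, 24.8 and 30.1 CPM at 15 min (log2 2.38 ± 0.17, adjusted p = 3.35e-07). urg3, the gene between them, rose less, by 0.44 ± 0.08 (adjusted p = 0.000887).

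Other genes that recovered from a fall were vht1, uro1, pof15 and gdh1. vht1, the biotin transporter, had 1097, 1226 and 1169 CPM at 30 min and 464, 486 and 522 CPM at 15 min, and its log2 change of 1.25 ± 0.12 (adjusted p = 4.49e-06) undid most of a first change of -1.74. uro1, which codes for uricase, rose by 1.24 ± 0.12 and pof15, an F-box protein gene, by 1.18 ± 0.19. uro1 passed its unirradiated level, by 0.88 at 30 min (adjusted p = 7.2e-06). gdh1, the glutamate dehydrogenase that assimilates ammonium, had 1405, 1590 and 1538 CPM at 30 min, against 897, 810 and 882 CPM at 15 min, and had also been called lower at 15 min.

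Genes of the iron uptake list, which also holds copper genes and regulators such as fep1, rose more often than they fell in the second interval. Of the 19 list members tested, 12 were called higher and 0 lower, with a median log2 change of 0.28. Over all genes 15.1% were higher and the median was -0.01. The summed level of the 19 was 2718, 2779 and 2743 CPM at 30 min and 2217, 2191 and 2158 CPM at 15 min. Under total-count scaling 9 of the 19 were higher and 0 lower. The 12 members divided evenly between classes, with 4 continued rises, 4 recoveries and 4 new rises.

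The reductive uptake pair fip1, the iron permease, and fio1, its multicopper oxidase partner, recovered. fip1 had 115, 103 and 97.5 CPM at 30 min, against 59.4, 43.8 and 42.8 CPM at 15 min. The groups did not overlap, and the 2.18-fold rise (log2 1.12 ± 0.11, adjusted p = 7.62e-06) left a log2 difference of 0.01 from no irradiation (adjusted p = 0.954). fio1 rose by 0.92 ± 0.12 but was still lower than without irradiation, by a log2 change of -0.60 (adjusted p = 0.000217). The copper transporter gene ctr4 also came back part of the way, with a second change of 0.46 ± 0.05 after a first of -0.95.

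Importers of siderophores and heme were among the new rises. str3, a siderophore transporter gene, had 38.9, 31.6 and 30.3 CPM at 30 min and 14.1, 9.33 and 9.74 CPM at 15 min, a 3.07-fold rise (log2 1.62 ± 0.17, adjusted p = 8.24e-06) with no first change called. Its lowest level of the course was at 10 min, where it averaged 3.97 ± 1.11 CPM. shu1, a heme uptake gene chosen here after its value was seen, rose by 1.76 ± 0.24 from low counts, with 2.97, 3.42 and 2.76 CPM at 30 min and 0.724, 1.34 and 0.644 CPM at 15 min. sib2, an enzyme of siderophore synthesis, continued up by 0.59 ± 0.08 (adjusted p = 7.94e-05), whereas str1, another siderophore transporter gene, had a second change of 0.26 ± 0.09 that missed the threshold (adjusted p = 0.0515). fep1, the iron repressor itself and also chosen after its value was seen, had a second change of 0.15 (adjusted p = 0.159).

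The Fep1 site ATCNGATAA was a motif added after genes of the iron uptake list had been seen to rise. It stood in the 250 bases upstream of 7 of the 12 list members that rose, or 58.3%. Of the 5112 windows of all protein-coding genes, 1.37% held it. Among the 19 tested members 8 held it (42.1%), str2 being the one that was not called higher. The list was drawn from general knowledge of iron uptake and the motif was added later, so the difference from all windows does not test the motif. Matches are of letters alone on both strands, and windows of fip1 and fio1 overlap and share both of their matches.

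**Figure D2:**
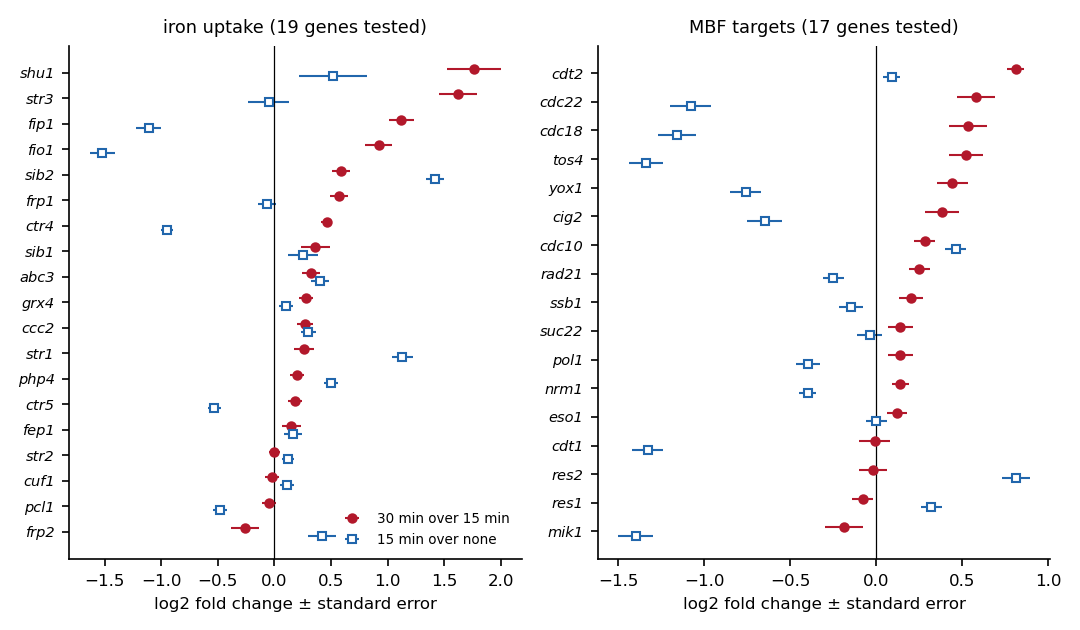
Log2 fold changes with standard errors of the 19 iron uptake genes (left) and 17 MBF target genes (right), filled circles for 30 min over 15 min and open squares for 15 min over no irradiation. shu1, str3, fip1 and fio1 lead the second change on the left. On the right cdc22, tos4 and cdc18 lie on opposite sides of 0 in the 2 changes, cdt2 is the highest in the second, and cdt1 and mik1 stayed low.

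MBF targets, the genes of G1/S, turned upwards in part. Of 17 list members tested, 10 were called lower at 15 min. In the second interval 9 rose (52.9%, against 15.1% of all genes) and 0 fell, with a median of 0.20. Of the 9, 6 were recoveries, 2 new rises and 1 a continued rise. Under total-count scaling 5 rose. cdc22, the large subunit of ribonucleotide reductase, had 989, 1182 and 1184 CPM at 30 min, against 633, 806 and 811 CPM at 15 min. Its groups stood apart (log2 0.58 ± 0.11, adjusted p = 0.00195), and it was still lower at 30 min than without irradiation, by a log2 change of -0.51 (adjusted p = 0.00138). tos4, a regulator of G1/S transcription, went the same way, with 297, 323 and 327 CPM at 30 min and 181, 242 and 237 CPM at 15 min.

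cdt2, an adaptor of the ubiquitin ligase that clears replication regulators, was 1 of 2 new rises on the list. It had 189, 203 and 197 CPM at 30 min and 112, 112 and 112 CPM at 15 min, a 1.76-fold new rise with no overlap (log2 0.81 ± 0.05, adjusted p = 2.03e-07). cdt1, which licenses replication origins, and mik1, a kinase that restrains mitosis, both picked after their values were seen, had no call in the second interval, at -0.01 and -0.19, after first changes of -1.33 and -1.40. ACGCGT stood upstream of 5 of the 9 MBF genes that rose (55.6%) and of 6 of the 17 tested (35.3%), cdt1 being the one not called higher. It stood in 2.64% of all windows, but the list was drawn from knowledge of MBF targets, so this difference does not test the motif. Among the 248 protein-coding new rises it stood in 15 windows (6.05%).

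Few mitotic genes were called in the second interval. Of 34 tested, 20 were lower at 15 min, and in the second interval 2 rose and 3 fell (5.88% and 8.82%, against 15.1% and 13.7% of all genes). Without library a or c at 30 min, or b or c at 15 min, 1 fell. slp1, the activator of the anaphase-promoting complex, had 73.0, 85.5 and 87.9 CPM at 30 min, against 66.2, 89.2 and 85.1 CPM at 15 min. The groups overlapped, with a log2 difference of 0.03 and a 95% interval of -0.20 to 0.27, and at 30 min it was lower than without irradiation by a log2 change of -2.25. ark1, the Aurora kinase gene, rose by 0.36 ± 0.09, and the septum gene chs2 fell further, by a log2 change of -0.52 ± 0.14.

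The peroxide answer continued. Of the 15 Pap1 targets tested, 11 rose again or newly (73.3%, against 15.1% of all genes) and 0 fell (median 0.47). Of the 11, 10 were continued rises. Of the 25 peroxide and thiol enzymes, 14 rose (56.0%) and 0 fell. The lists share members, among them gst2, tpx1, trr1 and ctt1, so their counts are not separate results. ctt1 is also on the core stress list. gst2, a glutathione transferase gene, had 2078, 2163 and 1999 CPM at 30 min and 1376, 932 and 1020 CPM at 15 min (log2 0.91 ± 0.12, adjusted p = 9.24e-05). tpx1, the main peroxiredoxin, had 4434, 5208 and 4898 CPM at 30 min, against 3768, 2975 and 3215 CPM at 15 min (0.55 ± 0.13, adjusted p = 0.0072). trr1, thioredoxin reductase, rose by 0.71 ± 0.16, although 70.3% of its interval is shared with a non-coding gene. caf5, an exporter gene, rose by 0.87 ± 0.14 and zwf1, which opens the pentose phosphate pathway, by 0.66 ± 0.08.

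ctt1, which codes for catalase, climbed at each time: 250 ± 70.7 CPM without irradiation, 2959 ± 447 at 10 min, 5186 ± 312 at 15 min and 7489 ± 842 at 30 min (SD, n = 3). Its second change of 0.53 ± 0.16 (adjusted p = 0.0212) was no longer called without library b or c at 15 min or without library b or c at 30 min. srx1, the sulfiredoxin that repairs overoxidised Tpx1, had levelled off, with 699, 754 and 779 CPM at 30 min and 824, 788 and 766 CPM at 15 min. Its groups overlapped, and its second change of -0.09 had a 95% interval of -0.26 to 0.07, after a first change of 5.46. pap1 itself, the factor behind these genes, rose by 0.28 ± 0.05 (adjusted p = 0.000797), while the thioredoxin gene trx2 had a second change of 0.03.

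Core stress genes rose more often than they fell. Of 30 tested, 15 rose, above the 15.1% share of all genes, and 3 fell, below the 13.7% share (median 0.41). Of the 15, 13 were continued rises, and the number higher was 15 under total-count scaling too. plr1, pyridoxal reductase, had 1412, 1606 and 1536 CPM at 30 min, against 846, 811 and 852 CPM at 15 min. SPBC23G7.10c, annotated as a flavin oxidoreductase, rose by 0.88 ± 0.11, gpx1, a glutathione peroxidase gene, by 0.64 ± 0.17 and SPAC4H3.03c, annotated as a glucosidase, by 0.78 ± 0.10. pyp2, the phosphatase that switches Sty1 off, went the other way, with 53.2, 70.1 and 87.3 CPM at 30 min and 159 ± 66.0 CPM at 15 min (mean ± SD, n = 3), where library a had 84.3 CPM. The groups overlapped for pyp2, through library c at 30 min and library a at 15 min. Its highest level was at 10 min, at 323 ± 30.4 CPM, and its second change was -1.19 ± 0.25 (adjusted p = 0.00249). atf1, with a second change of -0.17 (adjusted p = 0.332), and the trehalose synthase gene tps1, with 0.54 ± 0.25 (adjusted p = 0.116), were not called. gpd1 and hsp9, at 0.20 and 0.49, were not called either.

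The Atf1 core TGACGT was found upstream of 40 of the 293 protein-coding continued rises (13.7%), 16 of the 162 recoveries after a rise (9.88%) and 5.40% of the 4484 protein-coding genes tested.

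**Figure D3:**
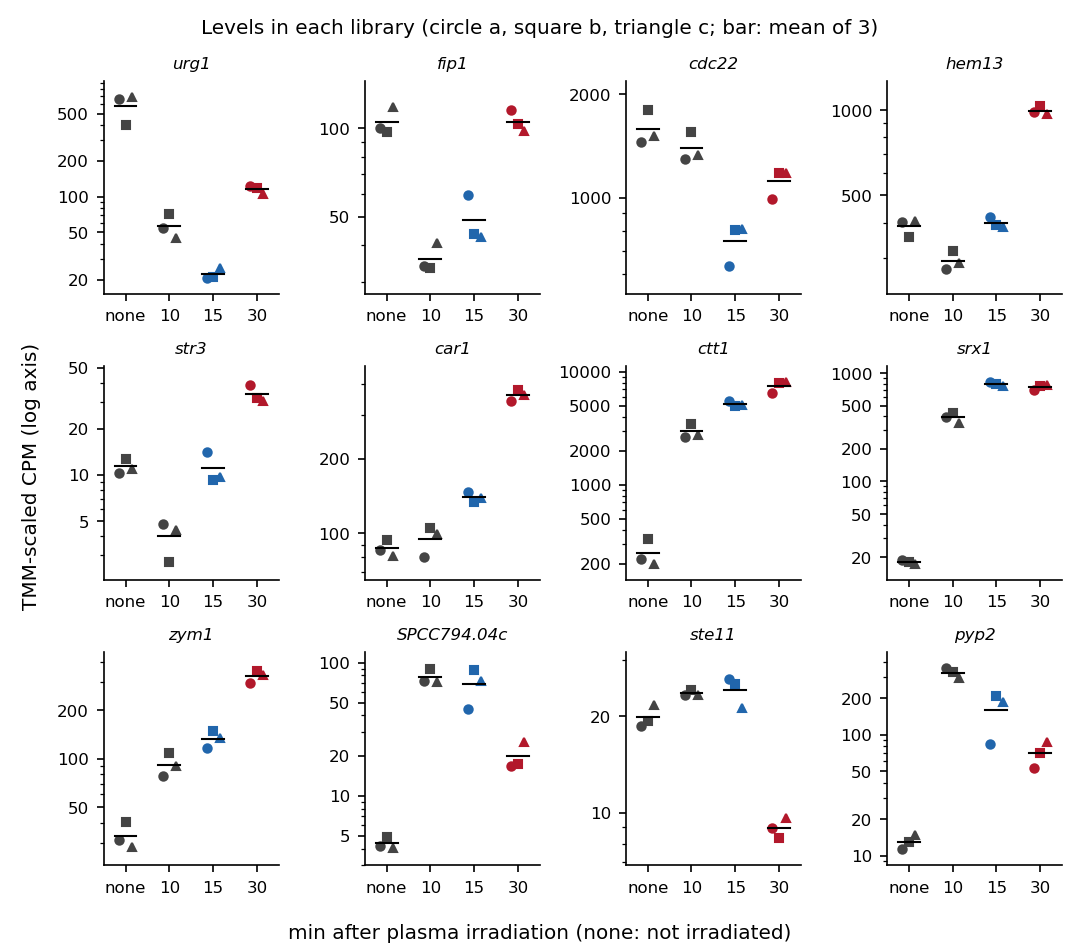
TMM-scaled CPM on a log axis in each of 12 libraries for 12 genes, by minutes after irradiation, with bars for the mean of 3. urg1 and fip1 came back up by 30 min, hem13, str3 and car1 rose after 15 min, ctt1 and zym1 climbed throughout, srx1 levelled off, and SPCC794.04c, ste11 and pyp2 came down.

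Among the 12 largest rises by the rule for named genes were zym1, hem13 and sur2. zym1, the metallothionein gene, had 295, 353 and 332 CPM at 30 min and 117, 148 and 134 CPM at 15 min (log2 1.29 ± 0.13, adjusted p = 6.43e-06), a continued rise. hem13, an oxygen-requiring enzyme of heme synthesis, had 986, 1031 and 968 CPM at 30 min, against 419, 391 and 386 CPM at 15 min. Its groups were far apart (2.50-fold, log2 1.32 ± 0.07, adjusted p = 3.12e-08), and its first change was 0.04. At 10 min hem13 had been lower than without irradiation, by a log2 change of -0.41 (adjusted p = 0.000209). It belongs to the ergosterol and hypoxia list, of which 17 of 26 members rose (65.4%, against 15.1% of all genes) and 1 fell (median 0.21). Of the 17, 8 were recoveries, 6 new rises and 3 continued rises. Under total-count scaling 8 rose and 1 fell. sur2, a sphingolipid hydroxylase gene, rose by 1.26 ± 0.12 and osm1, fumarate reductase, by 0.83 ± 0.05 with no first change called. At 10 min osm1 had been lower than without irradiation, by a log2 change of -0.24 (adjusted p = 0.00195).

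Other single genes also rose steeply. SPAC186.06, annotated as an isomerase, had 55.7, 43.7 and 37.5 CPM at 30 min and 13.6, 15.1 and 13.3 CPM at 15 min (log2 1.71 ± 0.14, adjusted p = 9.94e-07). rib4, an enzyme of riboflavin synthesis, rose by 1.27 ± 0.13. SPAPJ695.01c, which has no known function, newly rose by 1.41 ± 0.16 at under 10 CPM.

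Nitrogen-handling genes moved both ways. Of the nitrogen starvation and mating list, 6 of 26 rose and 6 fell (23.1% each, against 15.1% and 13.7% of all genes). The falls numbered 1 without library b at 30 min, 3 without library a or c at 30 min and 2 without library b or c at 15 min. car1, arginase, had 341, 378 and 361 CPM at 30 min, against 147, 134 and 139 CPM at 15 min (log2 1.36 ± 0.09, adjusted p = 1.91e-07). amt1, an ammonium transporter gene, had 254, 219 and 202 CPM at 30 min and 116, 92.7 and 100 CPM at 15 min. This was a 2.19-fold rise with no first change called (adjusted p = 6.43e-06). amt1 had been lower at 10 min, at 44.4 ± 5.43 CPM, against 105 ± 15.6 CPM without irradiation (SD, n = 3). ste11, the master factor of mating, fell to 8.98, 8.34 and 9.61 CPM at 30 min, against 26.1, 25.3 and 21.2 CPM at 15 min, a log2 change of -1.43 ± 0.10 (adjusted p = 2.03e-07). It ended lower than without irradiation, by a log2 change of -1.15 (adjusted p = 8.1e-08). The amino acid permease gene per1 rose by 0.45 ± 0.06. Genes of meiosis and sporulation, markers of cells in another state, had 1 rise and 1 fall among 17 tested (5.88% each, below the shares of all genes). They summed to 415 to 426 CPM at 30 min and 439 to 446 CPM at 15 min.

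Amino acid synthesis and the proteasome rose by small steps. Of all genes 15.1% rose and 13.7% fell, for comparison with both lists. For amino acid synthesis 16 of 40 members rose and 1 fell, 8 of the 16 as recoveries and 7 as new rises. Under total-count scaling 12 amino acid synthesis genes rose and 3 fell. asn1, asparagine synthetase, had 1562, 1587 and 1524 CPM at 30 min and 1117, 1132 and 1150 CPM at 15 min, and arg12, of arginine synthesis, rose by 0.53 ± 0.07. For the proteasome 16 of 32 members rose and 0 fell, 13 of them newly, and all 32 log2 changes were above 0 (median 0.20), also at a median of 0.12 under total-count scaling, where 9 rose. Without any 1 library at 30 or 15 min 10 to 12 proteasome genes rose, with 10 when library a at 15 min was left out. pre9, a core subunit, had 427, 439 and 422 CPM at 30 min, against 319, 347 and 335 CPM at 15 min (0.36 ± 0.06, adjusted p = 0.00026), and rpn3, of the regulatory cap, rose by 0.30 ± 0.06.

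The 3 chaperone genes that rose had their lowest plasma level at 15 min. ssa1, an Hsp70 gene, averaged 371 ± 339 CPM without irradiation, 1164 ± 405 at 10 min, 355 ± 134 at 15 min and 1147 ± 366 at 30 min (SD, n = 3). The large SD without irradiation comes from library b, at 763 CPM, against 182 and 168 CPM in libraries a and c. At 30 min ssa1 had 727, 1322 and 1393 CPM, against 210, 473 and 384 CPM at 15 min, with no overlap (log2 1.69 ± 0.48, adjusted p = 0.0171). The call was lost without library a at 15 min and without library b or c at 30 min. hsp104, the disaggregase, had 610, 891 and 893 CPM at 30 min and 201, 356 and 328 CPM at 15 min (1.43 ± 0.40, adjusted p = 0.0145), a call lost without library a at 15 min. hsp78, its mitochondrial relative, rose by 1.23 ± 0.31 (adjusted p = 0.00745).

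These 3 were the only members of 20 on the chaperone list called higher, which is 15.0% and close to the share over all genes, and hsp78 alone was called higher without library a at 15 min. ssz1, a ribosome-bound chaperone gene, fell by a log2 change of -0.29 ± 0.06. hsp16, a small heat shock protein gene, had 462, 701 and 636 CPM at 30 min and 284, 594 and 510 CPM at 15 min, overlapping groups, and its change of 0.37 had a 95% interval of -0.33 to 1.08. Of the 20 members 9 held GAANNTTC upstream, and of the 3 that rose ssa1 alone held it.

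**Figure D4:**
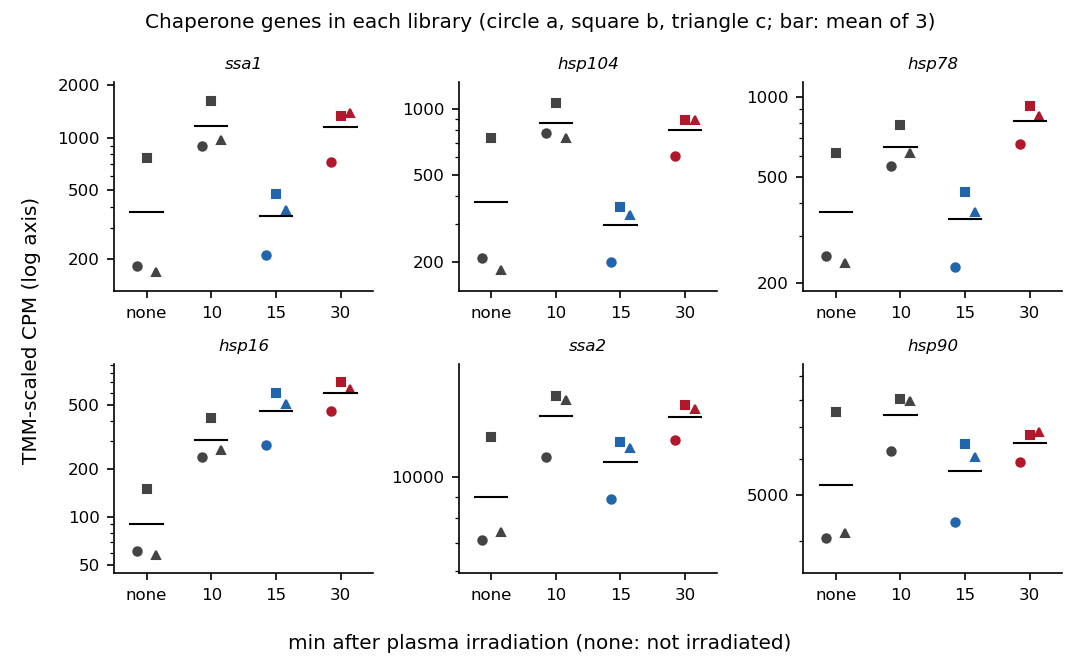
TMM-scaled CPM on a log axis for 6 chaperone genes in each of 12 libraries, by minutes after irradiation, with bars for the mean of 3. ssa1, hsp104 and hsp78 were lower at 15 min than at 10 and 30 min, hsp16 was high from 10 min on, and library b without irradiation lay above libraries a and c for all 6.

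Many transcripts of ribosome biogenesis genes kept falling. Of 103 ribosome biogenesis genes tested, 92 were lower at 15 min. In the second interval 45 fell further or newly (43.7%, against 13.7% of all genes) and 1 rose (median -0.20). Without library a at 15 min 26 fell. rpa12, a subunit of RNA polymerase I, had 46.9, 44.2 and 47.6 CPM at 30 min, against 77.6, 72.5 and 73.3 CPM at 15 min (log2 -0.69 ± 0.06, adjusted p = 2.91e-06). rrs1, an assembly factor gene, fell by a log2 change of -0.48 ± 0.08. Of 108 genes for cytoplasmic ribosomal proteins 13 fell and 0 rose, which is 12% and near the share of all genes. Without 1 library the falls numbered 4 (library a at 30 min), 7 (library b at 30 min or a at 15 min) or 5 (library c at 15 min). All 108 had a negative log2 change, however, between -0.46 and -0.01 (median -0.21), and under total-count scaling 82 were called lower. rpl3402 had 150, 155 and 149 CPM at 30 min and 201, 199 and 208 CPM at 15 min. The translation elongation genes eft202 and tef3 newly fell, by log2 changes of -0.40 ± 0.10 and -0.38 ± 0.11, and tef3 was no longer called without library a at 30 or at 15 min. The HomolD box CAGTCACA, a known element of ribosomal protein promoters, stood upstream of 73 of the 108 genes (67.6%) and in 2.62% of all windows.

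**Figure D5:**
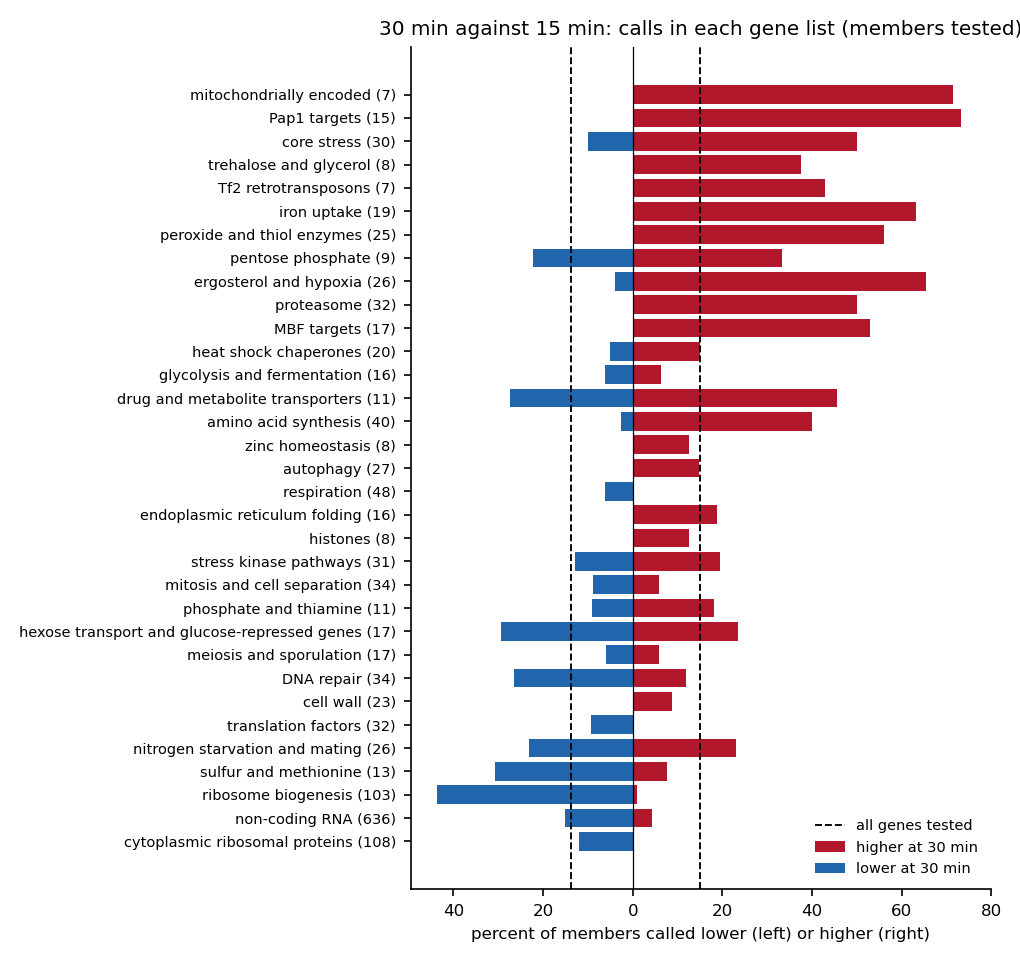
For each list with at least 7 genes tested, the percent of members called higher (right) and lower (left) at 30 min against 15 min, ordered by median log2 change; dashed lines mark the shares over all 5214 genes, 15.1% and 13.7%. Pap1 targets, iron uptake and ergosterol genes lie far beyond the right line, and ribosome biogenesis far beyond the left one.

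Other continued falls were led by ght5, a glucose transporter gene, with 26.7 ± 2.15 CPM at 30 min and 45.7 ± 4.03 CPM at 15 min (SD, n = 3 each; log2 -0.78 ± 0.15, adjusted p = 0.00148). ani1 and ani2, annotated as prolyl isomerases of the FKBP type, fell by log2 changes of -0.65 ± 0.09 and -0.69 ± 0.05, and but1, of the thioredoxin family by annotation, by -0.63 ± 0.12.

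Genes that had risen by 15 min and came back down included SPCC794.04c, annotated as a transporter, which had 16.6, 17.3 and 25.3 CPM at 30 min, against 45.1, 88.0 and 72.1 CPM at 15 min (log2 -1.80 ± 0.20, adjusted p = 2.12e-05). It was still 2.17 above no irradiation on the log2 scale. SPBPB2B2.06c, annotated as a phosphatase, had 8.56, 5.52 and 5.89 CPM at 30 min and 25.3, 17.3 and 18.2 CPM at 15 min, which left a log2 difference of 0.05 from no irradiation (adjusted p = 0.844). SPAPB1A11.06, of unknown function, fell by a log2 change of -1.42 ± 0.08, which left a difference of -0.15 from no irradiation (adjusted p = 0.137).

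gsf1 fell by a log2 change of -0.88 ± 0.08 and SPAC27D7.11c, of the But2 family, by -0.98 ± 0.09. The ABC transporter gene pdr1 had 121, 133 and 143 CPM at 30 min and 206, 222 and 208 CPM at 15 min, in contrast to abc1, another ABC transporter gene, which rose by 0.68 ± 0.06. sul1, the sulfate transporter gene, changed by -0.41 ± 0.09. Of 13 sulfur and methionine genes 4 fell (30.8%, against 13.7% of all genes) and 1 rose, and 2 fell without library b or c at 30 min. Among genes of DNA repair 9 of 34 fell (26.5%) and 4 rose (11.8%, against 15.1% of all genes). Without library a at 15 or at 30 min 4 fell, and without library c at 30 min 3 fell. The recombination gene rad54 rose by 0.44 ± 0.08 and nbs1, of the break-sensing Mre11 complex, changed by -0.25 ± 0.06.

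sam1, which makes S-adenosylmethionine, newly fell. It had 1609, 903 and 938 CPM at 30 min and 2108, 2053 and 2095 CPM at 15 min, so the size of its change (log2 -0.86 ± 0.16, adjusted p = 0.00139) differs between library a and libraries b and c at 30 min. pth4, cce1 and dni2 newly fell by log2 changes of -0.82 ± 0.16, -0.78 ± 0.13 and -0.77 ± 0.20 at levels under 10 CPM, and dni2 was no longer called without library b at 30 min.

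The wtf genes, a multigene family of meiotic drivers and their suppressors, were grouped after their values had been seen. Of 24 tested, 18 were called lower at 30 min than at 15 min and 1 higher, 11 as recoveries after a rise and 7 as new falls. Of all genes 13.7% were lower and 15.1% higher. The group was formed on its values, so the difference from these shares is not a test. The summed level of the wtf genes was 267, 246 and 251 CPM at 30 min, against 297, 299 and 300 CPM at 15 min. Members of a multigene family can share stretches of sequence. Reads may then be split among the wtf genes, so values of single members are uncertain. Non-coding RNAs had 27 rises and 96 falls among 636 tested. That is 4.25% higher, against 15.1% of all genes, and 15.1% lower, near the 13.7% of all genes, with 55 of the falls new and 63 falls without library b at 30 min.

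Of 7 mitochondrially encoded genes tested, 5 were called higher (71.4%, against 15.1% of all genes), with a median of 2.12. The level of these genes, however, differed between libraries in the same way as ribosomal RNA. Their sum was 220, 183 and 78.1 CPM at 30 min and 87.1, 25.8 and 16.7 CPM at 15 min, groups that overlap, with library a highest and c lowest at each time. The number called was 1 without library a and 2 without library b at 30 min, and 1 without library b and 0 without library c at 15 min. Ribosomal RNAs had 5 rises among 24 tested (20.8%, against 15.1% of all genes). The part of these library differences in the result was not tested.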

How the data were processed

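The authors deposited raw counts of read pairs per gene in one table of 12 plasma and control libraries and one of 3 H2O2 libraries. Per the submitters' processing notes, the tools included HISAT2 2.2.1 and SAMtools 1.13 and the build was R64. The headers of the deposited files show that featureCounts 2.0.1 summed transcript features by gene with no strand option, although per the labels the library kit was stranded, so reads in stretches shared by overlapping genes cannot be assigned with certainty. R64 is a budding yeast name while identifiers are those of fission yeast, so gene positions are given as deposited with no build. Gene start and end were read from the tables, as other values of the deposited files. Of 6998 identifiers 6852 matched the RefSeq annotation of ASM294v3, which gave names, and 4422 had a symbol. Upstream windows of 250 bases use that assembly alone. Columns carry letters, not the labels' replicate numbers, so libraries are named by time and letter.

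Genes were kept with filterByExpr, scaled with TMM and fitted with edgeR 4.0.16 in R 4.3.3 over all 15 libraries, 1 mean for each group (glmQLFit and a quasi-likelihood F-test, two-sided), with Benjamini-Hochberg adjustment over 5214 genes at 0.05. The biological coefficient of variation was 8.80%. P-values measure the spread between libraries labelled biological replicates. Chi-square per degree of freedom between libraries of one time was 8.76 to 36.9, above the value of 1 for pure counting error. The fit was tested on simulated data. Alternatives were RLE size factors, total counts, DESeq2 1.42.0, other filters, fewer libraries or genes, a 2-fold minimum, a stricter threshold and a block for the library letter.

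Members, lists, motifs and tests were chosen with earlier results of these data known. The 34 gene lists were drawn from general knowledge of the pathways, with 17 names left unmatched. Genes named are the 12 highest and 12 lowest called changes (mean count of at least 50, protein-coding, no overlap of the 3 and 3 libraries, under 50% of the interval shared), the 5 largest of each class, the 3 smallest p in each list with a call, a panel of 26 genes and the 3 largest turns each way. shu1, fep1, cdt1, mik1, cdc18 and str2 fall outside this rule and were chosen after their values were seen. Of these 143 genes, 73 overlap another gene and 12 over at least 50%.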

Additional observations from a re-analysis of the deposited data

Results flagged for a closer look

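The change between 15 and 30 min was tested against the change between 10 and 15 min, in the same model. The intervals last 15 and 5 min, so the test compares changes and not rates, and both changes use the 15 min libraries. The second was higher than the first for 292 genes (5.60% of 5214) and lower for 265 (5.08%). The counts were 125 higher and 109 lower without library a at 15 min, 176 and 153 without library b, and 146 and 152 without library c, and they were 193 and 159 without library b at 30 min. Scaling by total counts gave 100 higher and 252 lower. Among protein-coding genes with a mean count of at least 50 and under 50% of their interval shared with another gene, the largest called differences upwards on the log2 scale were 3.87 for urg2, 3.72 for urg1 and 3.40 for ssa1, and the largest downwards were -2.76 for SPBPB2B2.06c, -1.94 for SPAPB1A11.06 and -1.93 for SPCC737.04. All 6 have an adjusted p under 0.05 in edgeR's quasi-likelihood test.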

How the results depend on the processing

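Scaling by total counts gave 378 rises, 174 continued rises, 95 recoveries after a fall, 109 new rises and 100 turns upwards, and turned the median log2 change of 3 lists to below 0, at -0.02 for autophagy, -0.05 for histones and -0.07 for stress kinase pathways. A 2-fold minimum left 49 rises and 55 falls, and on both changes it left 4 continued rises, 0 continued falls, 20 recoveries after a rise, 18 after a fall, 27 new rises and 35 new falls. An adjusted p under 0.01 on both changes left 173 continued rises, 99 continued falls, 94 recoveries after a rise, 112 after a fall and 158 new falls. These settings lower the counts by construction, and the cause of the shift under total counts was not tested. Leaving out each library in turn gave 471 to 763 falls, 140 to 235 continued falls, 149 to 256 recoveries after a fall, 164 to 316 new falls, 125 to 402 turns upwards and 109 to 380 downwards, and a median of -0.09 to 0.06 for hexose transport genes. RLE size factors gave 827 rises and 681 falls, DESeq2 872 and 694, and the 6 libraries alone 921 and 825. Without the H2O2 libraries 666 genes rose and 667 fell. With the library letter as a replicate block 837 genes rose and 763 fell. Same-letter deviations at 30 and 15 min correlated at 0.196 for a, -0.0571 for b and 0.249 for c. Unlike letters correlated at -0.281 to 0.131. The letters were not taken as pairs because the labels name no pairing, and whether letters mark shared cultures is not known. With 3 libraries a group, small changes of genes at low counts are the least certain.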
